A study of Arabidopsis thaliana with 42 samples.

Results

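Transcript levels of 10 genes for serine/arginine-rich (SR) splicing factors were followed across the life of the wild-type Arabidopsis thaliana leaf. The genes are SR30 (AT1G09140), SR34 (AT1G02840), SR34A (AT3G49430), RS31 (AT3G61860), RS40 (AT4G25500), RS2Z33 (AT2G37340), SCL33 (AT1G55310), SCL30A (AT3G13570), SR45 (AT1G16610) and SR45a (AT1G07350). They were picked by locus, and every transcript model listed under those loci was taken, which gave 10 of 33604 genes and 25 of 41673 models. Leaves were collected at 14 ages between 4 and 30 days after the leaf emerged, 2 days apart, in 2 independent biological sets, which gave 28 total RNA libraries. No library carries a treatment or a mutant allele in its label, and the accession of the plants, the growth conditions, the time of day and the number of leaves pooled per library are not stated in the labels. Young leaves (days 4, 6 and 8), mature leaves (days 14, 16 and 18) and old leaves (days 26, 28 and 30) were compared, with 6 libraries in each stage. Levels are FPKM, reads scaled to transcript length and to the size of the library, so they can be set side by side between genes, and a gene's level is the sum over its models.

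SR proteins carry RNA recognition motifs and a domain rich in arginine and serine. They bind sequences in the pre-mRNA and help the spliceosome choose splice sites, and phosphorylation of the arginine/serine domain controls their activity and their place in the nucleus. In plants the pre-mRNAs of many SR genes are themselves alternatively spliced, and a number of the resulting transcripts carry early stop codons and are degraded by nonsense-mediated decay. Splicing of several SR genes in leaves is known to respond to light, temperature and stress.

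The read depth behind the values is unknown, because FPKM keeps no depth. The day 4 library of set 1 stood apart: its summed FPKM was 331479, against 439949 to 484348 in the other 27 libraries, and it correlated with its set 2 partner at r = 0.934 across genes, against 0.976 to 0.990 at the other ages. In 6 of the 10 SR genes (SR30, SR34, RS31, RS40, SCL33 and SR45a) that library held the lowest of all 28 values. Leaf markers fitted the tissue label, with RBCS1A, the small subunit of Rubisco, at 2523 ± 369 FPKM (SD, n = 6) in young leaves. Of 5 meristem and flower genes, WUS and CLV3 were listed at 0 in every library, STM and AP3 reached at most 0.133 and 0.174 FPKM, and AG reached 1.26 FPKM, with 3 libraries at 1 FPKM or more. Many genes rose together on the FPKM scale, and the median change of the 18239 genes tested was 0.32 on the log2(FPKM + 1) scale from young to mature leaves and 0.26 from mature to old leaves. After quantile normalization those medians were 0.03 and 0.04.

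From young to mature leaves 7 of the 10 SR genes rose (SR30, SR34, RS31, RS40, RS2Z33, SCL33 and SR45a), SR34A fell, and SCL30A and SR45 did not pass the test (limma, Benjamini-Hochberg adjusted p under 0.05 over all genes). Of all genes tested, 51.6% were called higher and 16.7% lower in this comparison. The median change of the SR genes was 0.39, against 0.32 for all genes. After quantile normalization 1 SR gene was higher (SR30) and 3 were lower (SR34A, SCL30A and SR45), against 33.9% and 30.0% of all genes. On that scale SR34, SCL33 and SR45a took small negative values (-0.04, -0.01 and -0.07), so the direction of these 3 depends on the scaling. The libraries of mature leaves did not overlap those of young leaves in 5 of the 10 SR genes (SR30, SR34A, RS31, RS2Z33 and SCL33), a separation that 39.7% of all genes tested showed. In bulk leaf RNA a change in the share of a cell type and a change in RNA per cell cannot be told apart. Between these stages 3 of 4 dividing cell markers fell, the other not being tested, and their summed FPKM moved from a median of 11.3 (7.57 to 19.2) to 2.28 (1.34 to 2.82). Of 5 stomatal lineage markers the 3 tested fell, as did 3 of 4 vascular markers, SUC2 rising. The part of these in the SR values was not tested.

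From mature to old leaves 7 SR genes rose (SR30, SR34, RS31, RS40, SCL33, SR45 and SR45a), and SR34A, RS2Z33 and SCL30A did not pass. No SR gene was called lower by limma, and none had an unadjusted p under 0.05 in that direction. Across all genes 48.3% were called higher and 27.1% lower. The median change of the SR genes was 0.37, against 0.26 for all genes. Quantile normalization left 4 genes higher (SR30, RS31, SCL33 and SR45a) and 2 lower (RS2Z33 and SCL30A), against 38.5% and 35.3% of all genes, and SR34 then stood at -0.09. Without both day 30 libraries all 10 SR genes were called higher, with SR34A at 0.36, RS2Z33 at 0.32 and SCL30A at 0.42 on the log2 scale; 49.6% of all genes were called higher and 20.9% lower there, and their median change was 0.33. Libraries of the compared stages did not overlap in 3 genes (SR30, SCL33 and SR45a), against 48.4% of all genes tested. Over all 14 ages each of the 10 genes changed by the F test, as did 91.0% of the genes tested.

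**Figure D1:**
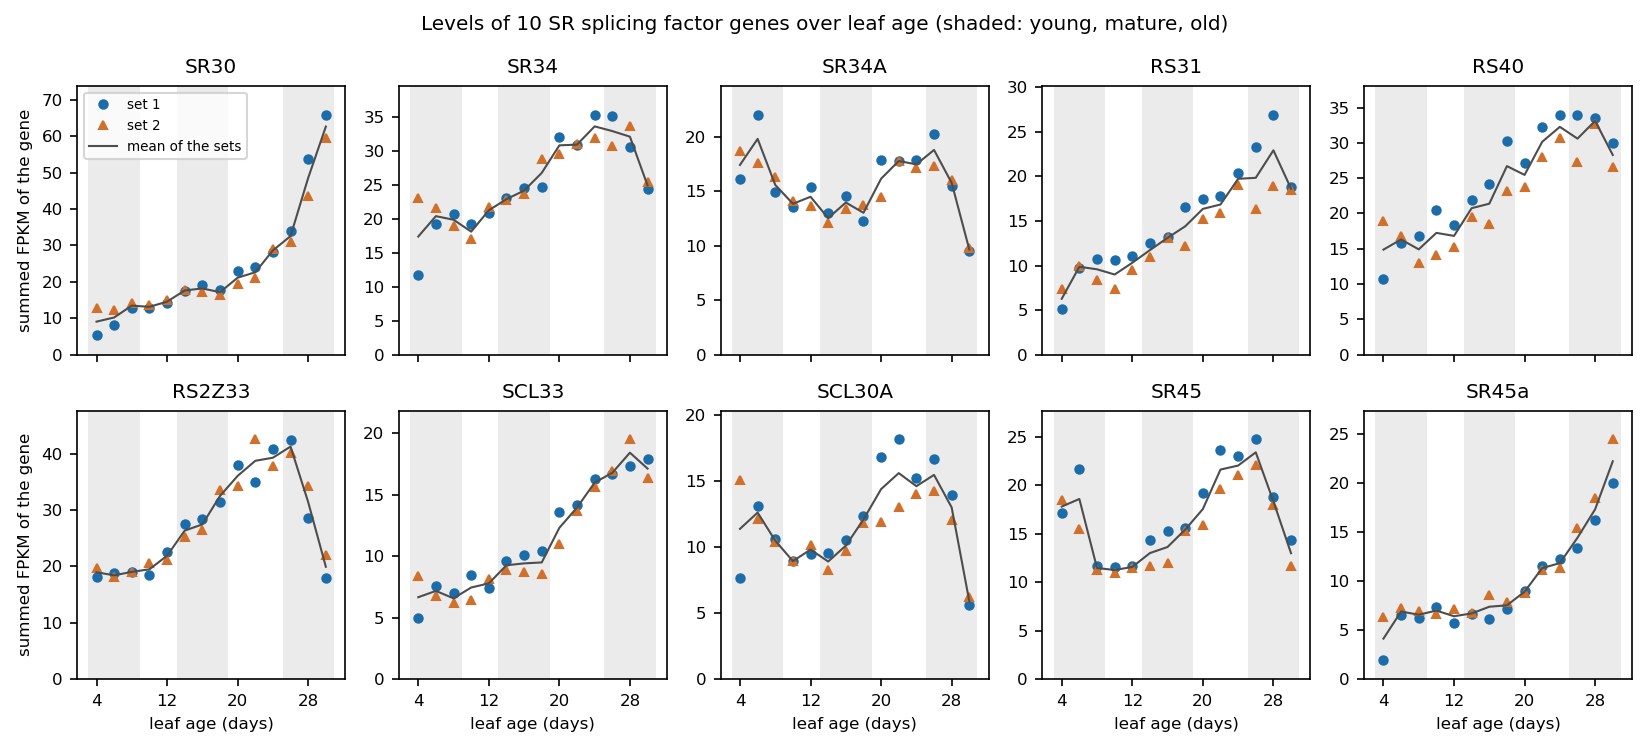
Summed FPKM of each SR gene (y axis) against leaf age in days (x axis); circles are set 1, triangles set 2, lines the mean of the sets, and grey bands the young, mature and old stages. SR30 and SR45a are highest at day 30 in both sets, whereas SR34A and SCL30A are lowest there.

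**Figure D2:**
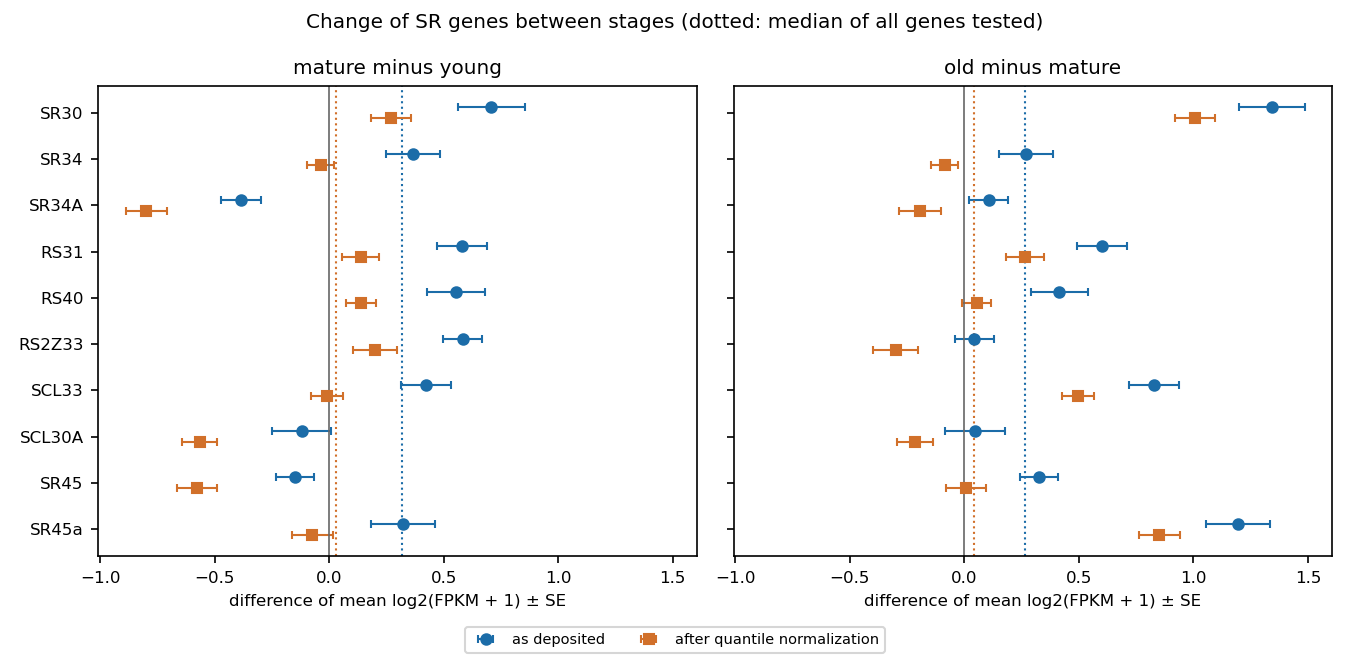
Difference of mean log2(FPKM + 1) between stages for each SR gene (x axis), with its standard error from limma; circles use the deposited values, squares the values after quantile normalization, and dotted lines mark the median of all genes tested on each scale. SR30 lies furthest to the right in both comparisons on the deposited scale, and SR34A furthest to the left from young to mature leaves.

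SR30, SR34 and SR34A belong to the SR subfamily, whose best known human member is SRSF1, a regulator of 5′ splice site choice. SR30 gave the largest change of the 10 genes in both comparisons on the deposited scale. In the 6 young libraries its lowest, median and highest values were 5.34, 12.5 and 14.2 FPKM, in mature leaves 16.5, 17.62 and 19.2, and in old leaves 31.1, 48.6 and 66.0. The stages do not overlap at either step. Its mean rose 1.62-fold from young to mature leaves and 2.72-fold from mature to old leaves, a change of 0.71 ± 0.14 (SE) and of 1.34 ± 0.14 on the log2 scale (limma adjusted p = 0.000318 and 1.43e-07). Set against the median of all genes, these changes were 0.39 and 1.08. Within the old stage SR30 kept climbing, from 34.1 and 31.1 FPKM at day 26 in set 1 and set 2 to 53.7 and 43.5 at day 28 and 66.0 and 59.4 at day 30. It was seventh of the 10 genes by mean level in young leaves and led in old leaves, although its range in old leaves overlapped that of RS2Z33, next in order.

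SR34, a close counterpart of SRSF1, stood at a mean of 19.2 ± 4.01 FPKM in young leaves, 24.6 ± 2.23 in mature leaves and 30.0 ± 4.31 in old leaves (SD, n = 6 each). The libraries overlapped at both steps. Its rise to the mature stage was 0.37 ± 0.12 (limma adjusted p = 0.0109), and that to the old stage 0.27 ± 0.12 (adjusted p = 0.0485). The second call was lost when any of 25 of the 28 libraries was left out, with adjusted p between 0.0518 and 0.131; it was kept without day 4 of either set and without day 26 of set 2. Neither change differed from the median of all genes by as much as 0.05.

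SR34A fell from 17.62 ± 2.54 FPKM in young leaves to 13.2 ± 0.938 in mature leaves (SD, n = 6 each). Its lowest young library held 14.9 FPKM and its highest mature library 14.6, so the stages were separated by a narrow gap. The change was -0.38 ± 0.09 (limma adjusted p = 0.000744), and -0.70 relative to the median of all genes. Old leaves gave 14.8 ± 4.28 FPKM and spread from 9.51 to 20.3. Both day 30 libraries, at 9.51 and 9.82 FPKM, were the lowest of their sets, at 0.612 times the day 28 value in each set.

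RS31 and RS40 belong to the plant-specific RS subfamily. RS31 is known for splicing that responds to light through a signal from the chloroplast, and RS40 also takes part in microRNA processing. RS31 had 8.56 ± 2.06 FPKM in young, 13.1 ± 1.91 in mature and 20.5 ± 3.89 in old leaves (SD, n = 6 each), a change of 0.58 ± 0.11 and then of 0.60 ± 0.11 (limma adjusted p = 0.000168 and 8.61e-05). The young and mature libraries did not overlap, from a highest young value of 10.7 to a lowest mature value of 10.9, whereas the mature and old libraries did, by the day 26 library of set 2 at 16.4. RS40 rose by 0.55 ± 0.13 and by 0.41 ± 0.13 (adjusted p = 0.000785 and 0.00618), from 15.4 ± 2.99 FPKM over 22.9 ± 4.15 to 30.7 ± 3.22. Its stages overlapped at both steps. The rises of both genes to the mature stage were not called after quantile normalization (RS31 0.14 and RS40 0.14), nor was that of RS40 to the old stage (0.05).

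RS2Z33, of a plant-specific subfamily with zinc knuckles between the RNA recognition motif and the arginine/serine domain, had a rise and fall. Young libraries held 18.0, 18.9 and 19.8 FPKM (lowest, median, highest), the narrowest young range of the 10 genes relative to its level, and mature libraries 25.3, 27.9 and 33.6. The change of 0.58 ± 0.09 passed the test (limma adjusted p = 1.05e-05), but not after quantile normalization (0.20). Old libraries ran from 17.9 to 42.4 FPKM, wider than the young and mature ranges together. In set 1 RS2Z33 stood at 42.4 FPKM at day 26, 28.5 at day 28 and 17.9 at day 30, and in set 2 at 40.1, 34.3 and 22.0. The difference between old and mature leaves was 0.04 ± 0.09 (adjusted p = 0.66), and 0.32 without day 30 (adjusted p = 0.00649).

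SCL33 and SCL30A are SC35-like proteins of plants, and SCL33 is known to control the splicing of its own pre-mRNA. SCL33 rose at both steps with no overlap between stages, from 6.79 ± 1.17 FPKM in young leaves over 9.38 ± 0.771 in mature to 17.4 ± 1.14 in old leaves (SD, n = 6 each). Its changes were 0.42 ± 0.11 and 0.83 ± 0.11 (limma adjusted p = 0.00224 and 1.82e-06), with the direction of the first lost after quantile normalization (-0.01). SCL30A gave 11.5 ± 2.55, 10.4 ± 1.52 and 11.4 ± 4.55 FPKM, and neither comparison passed (adjusted p = 0.43 and 0.76). Its day means were highest at day 22 (15.6 FPKM) and lowest at day 30 (5.89 FPKM), where the value was 0.399 times that of day 28 in set 1 and 0.516 times in set 2. Without the day 4 library of set 1, SCL30A was called lower in mature leaves (-0.29, adjusted p = 0.00512).

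SR45 and SR45a carry arginine/serine domains on both sides of the RNA recognition motif and are usually classed as SR-like. SR45 is a counterpart of human RNPS1, which joins the exon junction complex, and SR45a resembles the Tra2 proteins of animals and is known to respond to high light and heat. SR45 fell, recovered and fell again in its day means. They went from 18.6 FPKM at day 6 to 11.3 at day 10, 23.4 at day 26 and 13.0 at day 30. At day 30 SR45 held 14.4 FPKM in set 1 and 11.6 in set 2, against 11.6 to 15.6 in mature libraries. Its stage means were 16.0 ± 4.02, 14.0 ± 1.78 and 18.3 ± 4.82 FPKM (SD, n = 6 each). The first difference did not pass (-0.15 ± 0.08, limma adjusted p = 0.13) but was called without day 4 of set 1 (-0.20, adjusted p = 0.0179) and without day 6 of set 2 (-0.20, adjusted p = 0.0499). SR45 was higher in old than in mature leaves by 0.33 ± 0.08 (adjusted p = 0.00191), a call that was lost after quantile normalization (0.01).

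SR45a held 1.97, 6.42 and 7.25 FPKM in young leaves (lowest, median, highest), 6.18, 6.96 and 8.59 in mature leaves and 13.4, 17.3 and 24.5 in old leaves. Every old library lay above every mature library, and young and mature libraries overlapped. The mean rose 2.50-fold to the old stage, by 1.19 ± 0.14 on the log2 scale (limma adjusted p = 4.27e-07). The earlier change of 0.32 ± 0.14 was close to the threshold (adjusted p = 0.0479). It was lost when any of 26 of the 28 libraries was left out (all but day 4 of set 2 and day 16 of set 1), with adjusted p from 0.0503 to 0.163, and without day 4 of set 1 it was 0.13. Only SR45a and SR30 (20.0%) had a level at day 30 above that at day 28 in both sets, against 28.4% of all genes tested. In 7 of the 10 genes (70.0%) it was lower in both sets, against 54.7% of all genes tested, and SCL33 was mixed.

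Order by level in a stage was loose. In young leaves SR34 (19.2 FPKM) and RS2Z33 (18.8 FPKM) had the highest means and SR45a (5.87 FPKM) the lowest, and each gene overlapped the next in order. In mature leaves RS2Z33 led (28.8 FPKM) and SR45a was again lowest (7.20 FPKM). The gap between SR30 (17.7 FPKM) and SR45 (14.0 FPKM) in mature leaves was the only break between neighbours in any stage. In old leaves SR30 led (48.0 FPKM) and SCL30A was lowest (11.4 FPKM).

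Profiles over the 14 day means, which share their libraries and so are given as a description with no test, were closest between SR30 and SR45a (Pearson r = 0.964) and between RS31 and RS40 (r = 0.961). SR30 and SR34A were furthest apart (r = -0.36). Among 16266 other genes, the profiles most like that of SR30 were those of BZIP24, a bZIP transcription factor (r = 0.995), and AT1G79520 (r = 0.993). For SR45a they were IMPA-4, an importin alpha that carries proteins into the nucleus (r = 0.992), and IBR10 (r = 0.990). SR34 was nearest to AT3G08620 and TIM17-2 (both r = 0.987), SR34A to GCD1 (r = 0.973) and NACA3 (r = 0.966), and RS31 to AT5G51510 (r = 0.993) and AT1G55750 (r = 0.992). RS40 was nearest to AT5G11930 (r = 0.990) and AT1G67365 (r = 0.989), and RS2Z33 to AT2G07686 and AT1G30880 (both r = 0.988). SCL33 was nearest to AT1G25500 (r = 0.996) and ADR1 (r = 0.994), SCL30A to GAMMA-H2AX (r = 0.975) and AT5G64670 (r = 0.971), and SR45 to MEE49 (r = 0.974) and AT5G51540 (r = 0.970).

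The 25 transcript models were then taken one by one, since 8 of the 10 genes have 2 to 4 models in the tables. RS31 and SCL30A have 1 model each, so nothing can be said here of their splicing. A model is written as the gene name with the suffix of its identifier, SR30.1 for AT1G09140.1. The levels are the authors' estimates of how reads split between overlapping models, and models that share most of their exons can trade reads, as can near-identical parts of related SR genes. Whether the counting used strand is not stated in the labels. Of the models, 23 reached 1 FPKM in at least 2 libraries and were tested. SR34A.2 (highest value 0.522 FPKM) and SCL33.2 did not. SCL33.2 was under 0.001 FPKM in 27 of 28 libraries and at 0.843 FPKM in the remaining one, day 4 of set 1.

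From young to mature leaves 11 of the 23 models were higher and 1 was lower (SR34A.1), against 42.7% and 13.4% of all models tested. From mature to old leaves 10 were higher and 0 lower by limma (12 and 0 at an unadjusted p under 0.05), against 41.7% and 22.6%. After quantile normalization there were 2 higher and 4 lower models at the first step, against 27.1% and 24.7% of all models, and 7 higher and 3 lower at the second, against 31.8% and 29.6%. Over the 14 ages 18 models changed by the F test, against 77.7% of all models. In 6 genes the first model led in every library (SR34, SR34A, RS40, RS2Z33 and SR45) or in nearly every library (SR30, 27 of 28). SR34A.1 held the highest median share of its gene, 93.1%.

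SR30.1 held most of the rise of SR30 in old leaves. It had 7.44 ± 2.97 FPKM in young, 13.6 ± 1.70 in mature and 42.1 ± 14.5 in old leaves (SD, n = 6 each), and rose by 0.89 ± 0.22 and 1.50 ± 0.22 on the log2 scale (limma adjusted p = 0.00267 and 1.73e-05). SR30.2 had 3.46 ± 1.00, 4.05 ± 1.01 and 5.87 ± 1.66 FPKM. Its change to mature leaves did not pass (0.18 ± 0.14, adjusted p = 0.30), and that to old leaves was 0.44 ± 0.14 (adjusted p = 0.0146; 0.0619 without day 28 of set 2, and 0.20 on the log2 scale, not called, after quantile normalization). At day 30 SR30.1 stood at 60.8 and 53.1 FPKM in set 1 and set 2, and SR30.2 at 5.13 and 6.32.

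Both models of SR45a were called higher from mature to old leaves, and only SR45a.2 from young to mature leaves. SR45a.1 was at 3.83 ± 1.08 FPKM in young leaves, 2.89 ± 1.57 in mature leaves and 9.37 ± 2.78 in old leaves (SD, n = 6 each). The first difference did not pass (-0.39 ± 0.19, limma adjusted p = 0.10), but it was called without day 14 of set 1, without day 16 or day 18 of set 2 or without day 4 of set 1 (adjusted p from 0.0227 to 0.0462), and after quantile normalization (-0.76, adjusted p = 0.00195). The second was a rise of 1.48 ± 0.19 (adjusted p = 3.88e-06). SR45a.2 went from 2.03 ± 1.08 over 4.32 ± 1.56 to 8.63 ± 1.45 FPKM and rose at both steps, by 0.86 ± 0.20 and 0.91 ± 0.20 (adjusted p = 0.0013 and 0.000628). The second call was lost with a pseudocount of 0.1 (adjusted p = 0.0512). At days 16 and 18 SR45a.2 stood at 4.88 and 6.14 FPKM in set 1 and at 4.67 and 4.84 in set 2, while SR45a.1 stood at 1.30 and 1.01 in set 1 and at 3.92 and 3.07 in set 2.

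**Figure D3:**
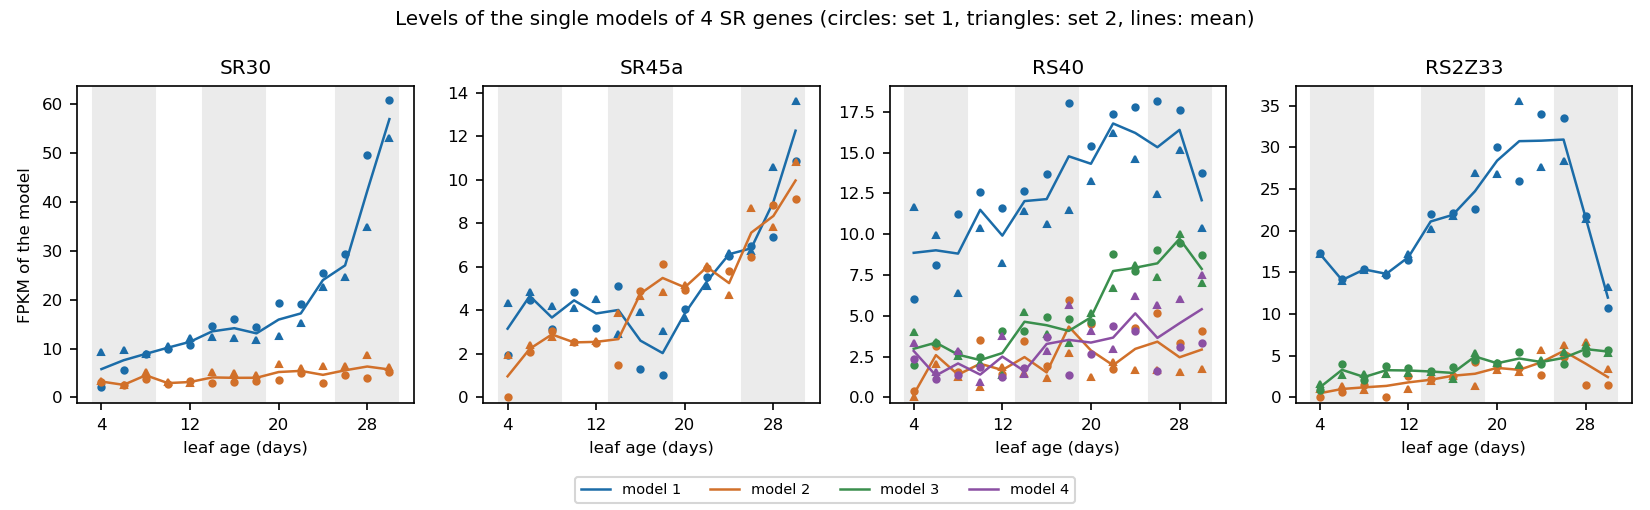
FPKM of single transcript models (y axis) against leaf age in days (x axis) for SR30, SR45a, RS40 and RS2Z33; colours are models, circles set 1, triangles set 2 and lines the mean of the sets. SR30.1 reaches 60.8 and 53.1 FPKM at day 30 while SR30.2 stays under 9 FPKM throughout. In set 1 and set 2 SR45a.1 ends at 10.9 and 13.6 FPKM, and SR45a.2 at 9.10 and 10.8 FPKM.

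In RS40 the third model moved most. RS40.3 rose by 0.84 ± 0.16 from mature to old leaves (limma adjusted p = 0.000269), from 4.38 ± 0.720 to 8.60 ± 1.17 FPKM (SD, n = 6 each) with no overlap, 5.21 FPKM being the highest mature value and 7.00 the lowest old value. RS40.1 was at 12.98 ± 2.70 and 14.6 ± 3.003 FPKM and did not pass (0.15 ± 0.15). The earlier rise of RS40.3 (0.44, adjusted p = 0.0303) was lost without any of 7 libraries: day 4, 6, 8, 16 or 18 of set 1, or day 8 or 14 of set 2 (adjusted p from 0.0521 to 0.11). RS2Z33 was split as well. RS2Z33.3 rose by 0.47 ± 0.14 (adjusted p = 0.00589) from mature to old leaves, to 5.35 ± 0.750 FPKM, a call lost after quantile normalization (0.24, adjusted p = 0.0934), while RS2Z33.1 gave -0.16 ± 0.09 (adjusted p = 0.13; -0.47 and called lower after quantile normalization). At the last step, from day 28 to day 30, RS2Z33.1 went from 21.7 to 10.7 FPKM in set 1 and from 21.4 to 13.2 in set 2. RS2Z33.3 went from 5.31 to 5.69 FPKM in set 1 and from 6.29 to 5.33 in set 2, so its direction differed between the sets. Both tested models of SCL33 rose to the old stage, SCL33.1 by 0.90 ± 0.17 and SCL33.3 by 0.65 ± 0.10 (adjusted p = 0.000265 and 3.78e-05). None of the 3 SR45 models passed in either comparison, although SR45.1 did from mature to old leaves without day 30 of set 1 (0.37, adjusted p = 0.0424).

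Model usage, the share of a gene's summed FPKM held by a model, was compared to see whether splicing of the SR genes shifted with age. Of 23 models of the 8 genes with at least 2, none was called in either direction at either step or by the F test (limma on percent, adjusted p under 0.05 over all models of such genes). Calls were rare throughout, at 0.656% higher and 0.733% lower of all models tested from young to mature leaves, 0.642% and 0.617% from mature to old leaves and 1.52% over the 14 ages. At an unadjusted p under 0.05 there were 3 SR models at the first step, 4 at the second and 7 over the 14 ages, against 11.5%, 8.75% and 10.6% of all models tested. On a log2 ratio of each model to the rest of its gene, 4 SR models were called at the first step (2 higher, 2 lower), 6 at the second (3 higher, 3 lower) and 3 over the 14 ages. On that scale the shares of all models tested were 9.39% higher and 13.3% lower at the first step, 12.1% and 13.4% at the second and 29.9% over the 14 ages. No SR model's usage separated all libraries of a stage from those of the next. The share of all models that did so is not given here, so this cannot be set against a background. Usages of a gene sum to 100%, so its models are not independent.

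Usage of SR45a.2 came nearest to a call at the first step. Its lowest, median and highest shares were 0.000309%, 32.4% and 49.0% in young leaves. They were 22.5%, 59.2% and 85.9% in mature leaves, and 42.5%, 46.8% and 56.3% in old leaves. The share of 0.000309% was in the day 4 library of set 1, the one that stood apart. The next lowest young share was 30.8%, in day 4 of set 2. The stages overlapped through the mature library of day 14 in set 1, the lowest at 22.5%. The mean moved from 30.7% ± 16.5 to 60.0% ± 22.3 (SD, n = 6 each), a difference of 29.3 ± 6.81 points (SE; limma adjusted p = 0.0536). The adjusted p was 0.0488 among genes with a mean of at least 5 FPKM, 0.046 without the set as a block and 0.00612 for the log2 ratio, but 0.239 without both day 4 libraries (21.7 points). Leaving out day 14 of set 1, day 4 of set 2, or day 16 or 18 of set 2 gave differences of 33.7 to 35.5 points. Without day 4 of set 2, day 4 rests on the set 1 library that stood apart. In SR45a the leading model changed between libraries, with SR45a.1 in front in 17 of 28.

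Usage of SR30.1 was 65.9% ± 13.1 in young, 76.9% ± 6.44 in mature and 86.6% ± 5.84 in old leaves (SD, n = 6 each), and neither step passed (limma adjusted p = 0.44 and 0.70). The sets went different ways at the first step, 22.9 points up in set 1 and 0.811 points down in set 2 (-0.811). At the second step both went up, by 7.67 and 11.8 points. Without day 4 of set 2 the first step was 17.5 points. Day 4 then rested on the set 1 library that stood apart, where SR30.1 held 41.6%, the lowest young share. That library also enters the 22.9 points of set 1. On the log2 ratio the second step was called (limma adjusted p = 0.0257).

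For RS40.3 usage was 19.4% ± 1.95, 19.5% ± 4.35 and 28.0% ± 1.66 (SD, n = 6 each). The last step was 8.51 ± 2.00 points (limma adjusted p = 0.0616), up in both sets by 9.70 and 7.32 points. The lowest old share, 26.3%, lay just under the highest mature share, 26.7%, in day 14 of set 2. The call was made without that library (adjusted p = 0.0286), without day 12 of either set (0.00404), without the block (0.0465) and on the log2 ratio (0.023). RS2Z33.3 went from 12.5% ± 2.57 to 19.4% ± 7.87 at that step (6.83 ± 1.73 points, adjusted p = 0.0918; 0.0353 without day 30 of set 2), and RS2Z33.1 from 78.7% ± 3.54 to 68.1% ± 8.45 (-10.6 ± 2.95 points, adjusted p = 0.14). SR45.3 ran from under 0.001 FPKM in 4 libraries to a share of 33.8% in another, with no call.

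**Figure D4:**
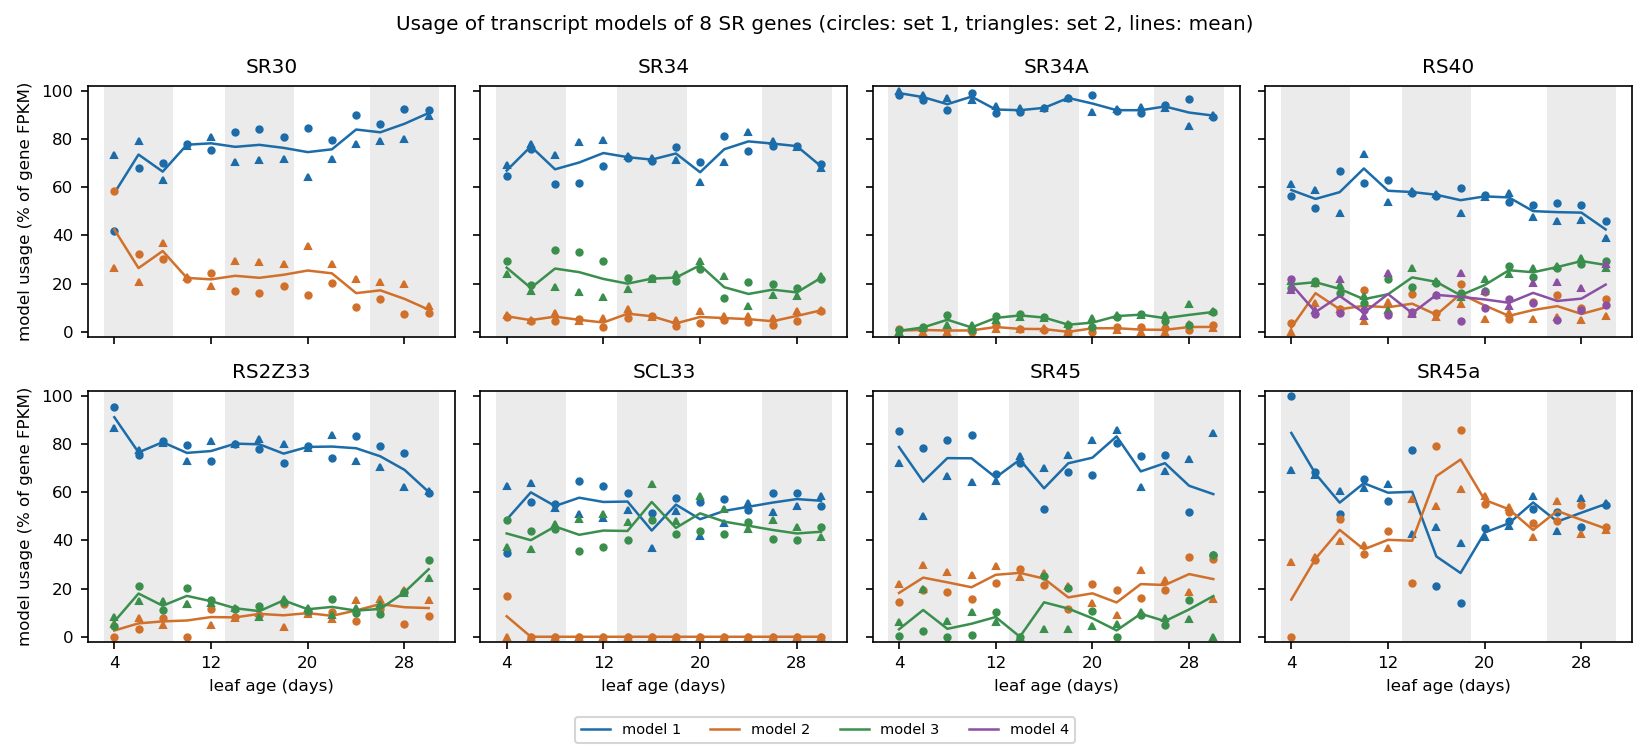
Usage of each transcript model as a percent of its gene's summed FPKM (y axis) against leaf age in days (x axis) for the 8 SR genes with at least 2 models; colours are models, circles set 1, triangles set 2 and lines the mean of the sets. SR34A.1 stays above 85% in every library, whereas the SR45a models trade places and lie between 14.1% and 85.9% at day 18 of set 1.

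Other parts of the splicing machinery were read from lists drawn up for this comparison. Of all genes tested, 51.6% were called higher and 16.7% lower at the first step, and 48.3% and 27.1% at the second. After quantile normalization the shares were 33.9% and 30.0%, and then 38.5% and 35.3%. Of 10 further SR genes 9 were tested, and 7 rose from young to mature leaves and 8 from mature to old leaves, none falling. The median changes were 0.44 and 0.35, against 0.32 and 0.26 for all genes. After quantile normalization 1 was higher and 3 were lower at the first step, and 3 were higher and 1 lower at the second. SC35, the plant counterpart of SRSF2, rose from 16.5 ± 2.31 FPKM in mature to 29.1 ± 2.95 in old leaves (0.78 ± 0.11, limma adjusted p = 5.35e-06), and RS41, the closest relative of RS40, from 25.1 ± 3.61 to 37.3 ± 2.06 (0.57 ± 0.10, adjusted p = 6.84e-05). RS2Z32, the paralog of RS2Z33, rose by 0.37 to the mature stage on the deposited scale and stood at -0.03 after quantile normalization. SCL28 stayed under the limit for testing.

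Of 9 genes listed for kinases of SR proteins and their nuclear import, 8 rose at each step and none fell. Median changes were 0.33 and 0.67, against 0.32 and 0.26 for all genes. After quantile normalization 2 were higher and 2 lower, and then 7 higher. AFC2, a LAMMER kinase that phosphorylates SR proteins, went from 12.7 ± 4.24 FPKM over 20.8 ± 2.37 to 37.7 ± 9.34 (SD, n = 6 each). SRPK4 (AT3G53030) rose by 0.83 ± 0.10 to the mature stage (limma adjusted p = 8.81e-07). MOS14, an importin that brings SR proteins into the nucleus, rose by 0.78 ± 0.10 to the old stage (adjusted p = 1.26e-06).

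Among 16 genes for the spliceosome core and splice site recognition, 7 rose to the mature stage and 11 to the old stage, the others not passing. Of all genes tested 51.6% and 48.3% were called higher. Median changes were 0.22 and 0.43, against 0.32 and 0.26 for all genes. Quantile normalization gave 3 higher and 7 lower at the first step and 6 higher at the second. The shares of all genes were then 33.9% and 30.0% at the first step and 38.5% higher at the second. SKIP, a spliceosome component that also serves the clock, rose by 0.82 ± 0.11 and 0.48 ± 0.11 (limma adjusted p = 2.79e-06 and 0.000559), and U1-70K, which recognises the 5′ splice site, by 0.47 ± 0.09 to the old stage (adjusted p = 0.000106). Of 5 hnRNP-type regulators 2 rose at each step, PTB1 and PTB2 at the first (PTB1 stood at -0.02 after quantile normalization) and GRP7 and PTB2 at the second; quantile normalization gave 2 lower at each step and 0 and 2 higher. For nonsense-mediated decay and the exon junction complex, 4 of 7 genes rose to the mature stage and 7 of 7 to the old stage, against 3 higher and 3 lower, and then 6 higher, after quantile normalization. UPF3, a core factor of this decay pathway, went from 7.84 ± 1.41 over 15.9 ± 1.54 to 34.1 ± 6.53 FPKM (SD, n = 6 each).

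Of 7 heat shock genes listed 4 were tested, and 2 rose to the mature and 4 to the old stage, against 51.6% and 48.3% of all genes. The list's summed FPKM had a median of 3.78 in young, 8.92 in mature and 62.0 in old leaves (ranges 2.82 to 4.67, 7.67 to 17.4 and 39.5 to 103). In old leaves HSP70 and HSP90.1 had the highest means, 44.0 and 16.0 FPKM. Their means were 4.45 and 4.34 in mature leaves and 1.38 and 0.996 in young leaves. HSFA2, HSP17.6II, APX2 and HSP21 had old means under 1 FPKM. HSP21 was listed at 0 in all young and mature libraries. Senescence markers rose as well, with SAG12 at 1531 ± 1139 FPKM in old leaves, and all 5 mesophyll markers fell, from a median summed FPKM of 6655 in mature to 1438 in old leaves. All 4 vascular markers fell too, from a median summed FPKM of 198 (179 to 238) to 103 (87.4 to 141), as did the 3 dividing cell markers tested, with the list's summed FPKM going from 2.28 to 0.370 (0.118 to 1.115). Of the 3 stomatal lineage markers tested 1 rose and 1 fell. The part of any of these lists in the SR values of old leaves was not tested.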

How the data were processed

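Total RNA of leaves was read from the 2 deposited tables, 1 per biological set. Per the submitters' processing notes, TopHat 1.4.0, Cufflinks and the TAIR10 genome were used, and the values are FPKM per transcript model, as deposited by the authors; how reads were filtered or assigned is not stated in the labels. Small RNA libraries of the series were not used here. Locus names came from a RefSeq gene table. Sequences of the genes were not analysed here. No column of the tables was left without a sample (0).

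Models were summed to genes. Genes (18239) and, separately, models (22635) that reached 1 FPKM in 2 or more libraries were kept, and limma 3.58.1 with its trend option, in R 4.3.3, modelled log2(FPKM + 1) on day (a factor) plus set (a block). Pseudocount 1 understates changes of low models. Contrasts set the mean of 3 days against that of 3 others, and an F test covered the 14 days. The Benjamini-Hochberg adjustment ran over every feature in the table, and 0.05 was the threshold. Usage in percent was fitted in the same way, without trend, for models of genes with at least 2 models and a mean of at least 1 FPKM; it was missing where a gene was at 0. Each stage mean rests on 6 libraries. Standard errors and p-values rest on differences between the sets within days, pooled over all 14 days. They do not measure the spread between the days of a stage, which the SDs include. The steps were also run on simulated data with independent noise and a change placed in the mature days. The simulation held no set effect and no shift shared by all genes, so it cannot show how the steps behave under these. Alternatives were a pseudocount of 0.1, no filter, quantile normalization, rescaling to the nuclear-encoded sum, no block, each library left out and day 4 left out; leaving out day 30 was chosen after seeing the data. A library left out leaves its day with 1 sample, assumed to vary like the others.

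Named are all 10 SR genes and their models, from each other list up to 4 genes per comparison with the smallest adjusted p and the same direction in both sets, and for each SR gene the 2 genes outside the lists with the most similar day means. RS2Z32, PTB1, AFC2, SAG12, HSP21 and RBCS1A are named under the rule for lists or as marker checks, and SCL28 as the gene not tested. The members and lists were chosen with earlier results of these data known. Python 3.11.15, numpy 2.4.6, pandas 2.3.3 and matplotlib 3.10.9 were used for summaries and figures. Some genes that the naming rule covers are not reported here.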

Additional observations from a re-analysis of the deposited data

Results flagged for a closer look

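Dixon's 95% criterion was applied to 30 groups of 6 libraries (10 SR genes in 3 stages). In 3 groups the highest or lowest library lay further from its neighbour, as a share of the group's range, than that criterion allows. Chance gives about 1 in 20 groups where values are independent and drawn alike. Here each group spans 3 ages and 2 sets, and the same libraries recur in all 10 genes, so that rate need not hold. SR34 in young leaves was lowest in the day 4 library of set 1, at 11.7 FPKM (gap 0.642 of the range). SR34 in mature leaves was highest in the day 18 library of set 2, at 28.9 FPKM (gap 0.683). SR45a in young leaves was lowest in the day 4 library of set 1, at 1.97 FPKM (gap 0.801). That day 4 library is the one with the low summed FPKM of 331479.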

How the results depend on the processing

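Counts of SR genes called were steady under a pseudocount of 0.1, no filter and no day 4 (6 or 7 higher and 1 or 0 lower at each step), and moved most with the scaling. Quantile normalization gave 1 gene higher and 3 lower from young to mature leaves and 4 higher and 2 lower from mature to old leaves, and 2 models higher and 4 lower, then 3 lower. Rescaling to the nuclear-encoded sum gave 3 genes and 3 models lower at the first step and 1 model lower at the second, and leaving out both day 4 libraries gave 2 models lower at the first. Among values of named genes and models called on the deposited scale, some changed sign under quantile normalization. They were SR34 (-0.03586 and -0.08515), SR34.1 (-0.01135 and -0.03376), SR45a (-0.07409), SCL33 (-0.01023), RS2Z32 (-0.03405), PTB1 (-0.01828) and the mesophyll marker LHCA1 (0.04778). Values not called on the deposited scale are left out of that list. From mature to old leaves RS2Z33 (0.04) and SCL30A (0.05) were not called there, but were called lower after quantile normalization. The cause of these sign changes was not tested.

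Usage counts depended on the scale: the log2 ratio gave 2 higher and 2 lower, 3 higher and 3 lower, and 3 over the 14 ages, a gene mean of at least 5 FPKM gave 1 higher and 1 lower at the first step, and no block gave 1 and 1 there and 1 higher at the second. With 1 library left out, genes higher ranged from 6 to 7 at both steps and genes lower from 1 to 3 at the first (3 without day 4 of set 1) and 0 at the second, with 10 changed over the 14 ages. Models ranged from 9 to 12 higher and 1 to 3 lower, then 8 to 11 higher and 0 lower, and 16 to 20 over the 14 ages. Usage ranged from 0 to 2 higher and 0 to 3 lower, then 0 to 1 higher and 0 lower, and 0 to 4 over the 14 ages.

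Set numbers were checked as pairs. Set 1 deviations from the day means correlated above 0.1 in 66 of 91 pairs of days (lowest -0.15, median 0.23, highest 0.65). In most pairs of days the sets thus differed in a partly shared way. The correlations do not show which libraries were grown or prepared together. Without the replicate block 6 SR genes were higher at each step (7 with it) and 10 models became 9 at the second. Depth is unknown, so levels under 1 FPKM carry an unknown counting error.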
